A study of Mus musculus with 10 samples.

Results

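The genes described here encode apolipoproteins and the proteins that build lipoprotein particles. They are 10 of the 24062 genes in the deposited expression table, taken by name: Apoa1, Apoa2, Apoa4, Apoa5, Apob, Apoc3, Apoe, Apom, Mttp and Lcat. All 10 passed the filter on low values. They were followed across 10 polyadenylated RNA libraries from mouse liver, in a study of a Western diet combined with carbon tetrachloride (CCl4), a toxin that injures hepatocytes once their cytochromes P450 have activated it. The groups were 2 liver tumours, labelled hepatocellular carcinoma, from single mice on Western diet plus CCl4 at 24 weeks; liver on Western diet plus CCl4; liver on Western diet plus the oil vehicle; liver on normal diet plus CCl4; and liver on normal diet plus oil. Each of the 4 liver groups had 1 pool of 4 mice at 12 weeks and 1 at 24 weeks, and no condition had a second pool. The sources used here do not give dose, strain, sex or age.

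The liver makes most plasma lipoproteins. Very-low-density lipoprotein (VLDL) forms when microsomal triglyceride transfer protein, encoded by Mttp, loads lipid onto apolipoprotein B as it is made. High-density lipoprotein (HDL) forms when apolipoprotein A-I takes up phospholipid and cholesterol from cells, after which lecithin-cholesterol acyltransferase, encoded by Lcat, esterifies that cholesterol. Apoa4 is known mainly as an intestinal gene, and mouse liver also makes it.

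The libraries held 23206229 to 30137802 reads, and values below are normalised read counts, the authors' scaling of read counts between libraries. The 10 genes together took 3.52% to 6.19% of a library's reads, with tumour 1 lowest and tumour 2 highest. Tumour 2 stood apart in albumin, which took 17.7% of its reads, against 6.47% to 10.4% in the other 9 libraries. The summed value of 16 hepatocyte markers was 327645 in tumour 2, 119692 in tumour 1 and 100181 to 190688 in the liver pools. Albumin alone gave 203789 of the tumour 2 sum. Other markers went both ways. Fga had 8538 in tumour 2, against 2827 to 7337 in the liver pools, and Ttr had 3496, against 3857 to 8409. Changes are log2 fold changes on the log2(value + 1) scale with the standard error of the fit. A gene is called when limma's adjusted p over all 12648 tested genes is under 0.05. In the liver comparisons the fit removes a shift between 12 and 24 weeks that all 4 conditions share. The error comes from how the difference between the 2 durations varies from condition to condition. Limma also draws each gene's error toward that of genes of similar level, so it is not the gene's own spread alone. This error does not measure variation from mouse to mouse. The comparisons with normal diet plus oil share those 2 pools. In bulk tissue, fewer hepatocytes and less RNA per hepatocyte cannot be told apart.

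**Figure D1:**
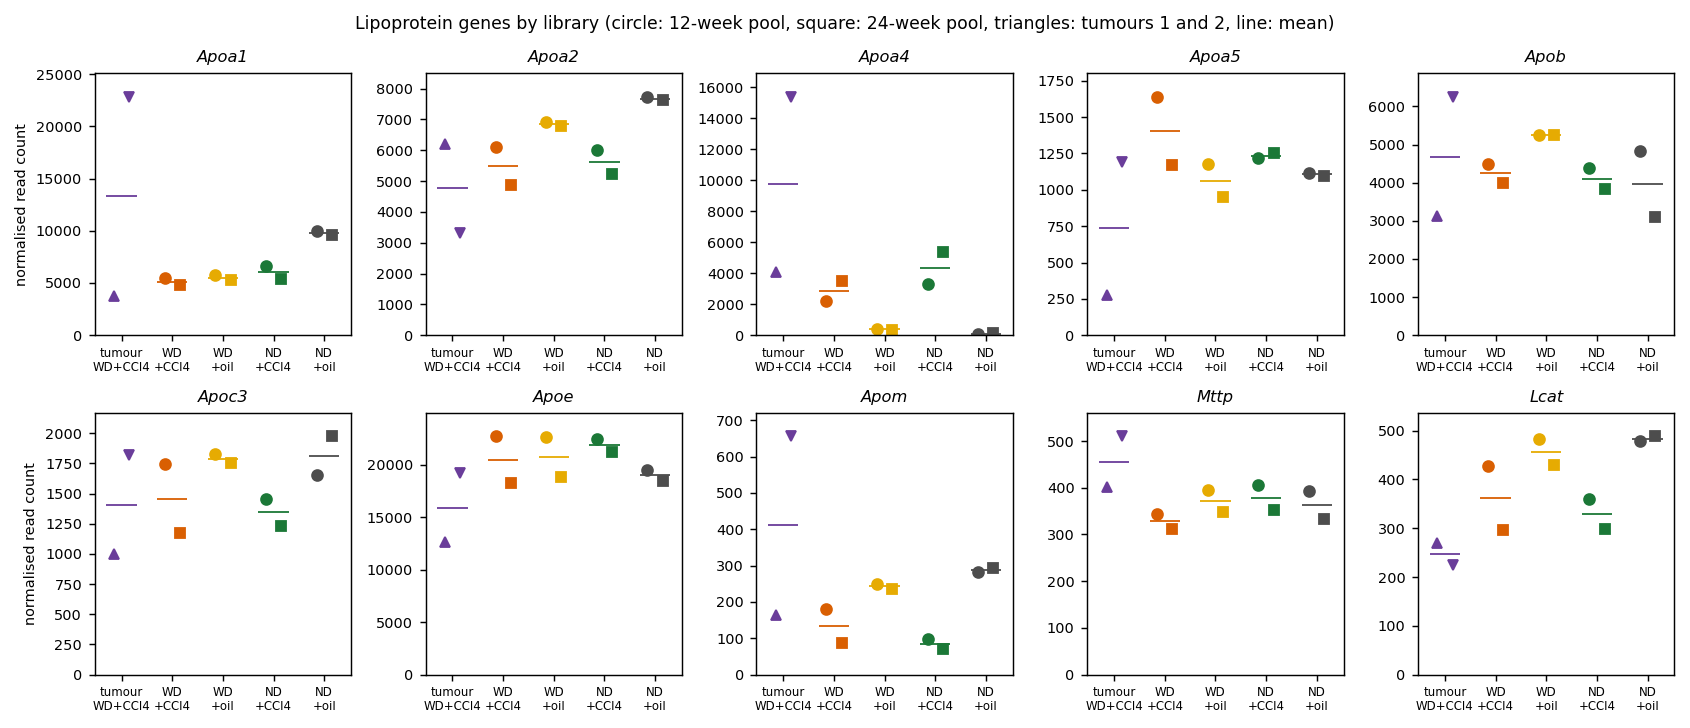
Normalised read counts (vertical axes, linear, from 0) of the 10 genes in each library, by group. Circles are 12-week pools, squares 24-week pools, triangles tumours 1 and 2, and lines group means. Apoa4 was low in both normal diet plus oil pools and high in all 4 CCl4 pools and both tumours, while Mttp stayed between 313 and 510.1 in all 10 libraries.

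In unexposed liver, on normal diet plus oil, the most abundant of the 10 messages per kilobase of exon was Apoa2 at 14295 ± 124 normalised reads per kilobase (SD, n = 2 pools throughout). Apoe followed at 8889 ± 342 and Apoa1 at 7953 ± 221, then Apoc3 at 1789 ± 224. Apoa5 had 438 ± 5.58, Lcat 361 ± 4.80, Apob 284 ± 88.3 and Apom 283 ± 7.80. Mttp had 58.5 ± 6.70 and Apoa4 57.8 ± 10.6, last of the 10. In this order Lcat and Apob, Apob and Apom, and Mttp and Apoa4 were neighbours that did not differ beyond their spread. Apoa4 was 9th of 10 on Western diet plus oil, with 210.2 ± 25.0 per kilobase. It was 4th of 10 in the tumours, on Western diet plus CCl4 and on normal diet plus CCl4.

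Apoa4 lies in a cluster of 4 of these genes that spans 43.34 kb of chromosome 9 (GRCm38, GENCODE annotation). The gene order is Apoa1 (chr9:46228580-46230466, forward strand), Apoc3 (chr9:46232933-46235636, reverse), Apoa4 (chr9:46240696-46243459, forward) and Apoa5 (chr9:46268633-46271919, forward). The other members are single genes on chromosomes 1 (Apoa2), 12 (Apob), 7 (Apoe), 17 (Apom), 3 (Mttp) and 8 (Lcat). Apoa4, Apoa5, Mttp and Lcat overlap annotated genes of the opposite strand. Whether reads were counted by strand is not stated, so such pairs cannot be told apart, although the only partner in the table, Trmt10a at Mttp, reached no more than 7.18.

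RefSeq's promoter table (GRCm38.p6) held 9 of the 10 genes, in windows of 300 bases from 250 before to 50 after each start. The stretches below end just before the annotated start and are shown because Apoa4 and its neighbour Apoa1 moved in opposite directions and Apob did not pass the test. They are chr9:46240594-46240695 for Apoa4, chr9:46228380-46228579 for Apoa1 and chr12:7977427-7977647 for Apob, all forward strand, with capitals marking matches to CAAAGNNCA on either strand.
Apoa4: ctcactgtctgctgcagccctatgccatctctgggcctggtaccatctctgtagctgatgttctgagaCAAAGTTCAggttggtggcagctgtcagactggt
Apoa1: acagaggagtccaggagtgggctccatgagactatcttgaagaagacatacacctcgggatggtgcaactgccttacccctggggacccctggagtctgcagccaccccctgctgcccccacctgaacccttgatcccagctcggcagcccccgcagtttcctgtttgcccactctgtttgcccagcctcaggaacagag
Apob: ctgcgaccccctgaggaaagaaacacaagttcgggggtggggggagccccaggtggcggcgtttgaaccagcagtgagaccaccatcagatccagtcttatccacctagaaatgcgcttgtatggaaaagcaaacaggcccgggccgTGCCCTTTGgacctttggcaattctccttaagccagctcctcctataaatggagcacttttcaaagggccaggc
CAAAGNNCA holds letters found in sites of HNF4A, a nuclear receptor of hepatocytes. Apoa4 had CAAAGTTCA at positions -182 to -174 from its RefSeq start, and Apob had the reverse-strand match TGCCCTTTG at -103 to -95. On both strands, 2089 of 32851 promoter windows held it, or 6.36%. AGGTCA, a core site of nuclear receptors, was in 16.3% of windows and among these genes only in that of an upstream Apoa2 start. CACGTG, the E-box, was in 7.15% and here only in the windows of Apoa5. No matches to different motifs overlapped. The motifs were chosen with the expression results known, and a match is a description of letters only.

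CCl4 on a normal diet asked what the toxin did alone. Apoa4 rose 36.3-fold at 12 weeks and 45.1-fold at 24 weeks, and Apom, Apoa1 and Lcat fell. That is 4 of the 10 genes called, 1 higher and 3 lower, against 26.0% of all tested genes called in this comparison (15.3% higher and 10.6% lower). The median log2 change of the 10 was -0.18, and that of all tested genes 0.00.

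Apoa4 had 3307 and 5345 normalised reads at 12 and 24 weeks on normal diet plus CCl4, against 91.2 and 119 on normal diet plus oil. The groups were far apart, with a log2 change of 5.32 ± 0.22 (limma adjusted p = 9.33e-06). In raw reads, this was 83137 and 180054 against 2056 and 2591. The rise was called under all 11 other settings and in all 8 fits without 1 library.

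Apom encodes apolipoprotein M, which carries sphingosine-1-phosphate on HDL. It had 97.5 and 70.0 normalised reads on normal diet plus CCl4, against 281 and 293 on normal diet plus oil. The groups did not overlap, and the log2 change was -1.78 ± 0.23 (limma adjusted p = 0.00138), called in all 8 fits without 1 library. Apoa1 had 6650.3 and 5360.1, against 10023 and 9637, a log2 change of -0.72 ± 0.22 (limma adjusted p = 0.0445). Lcat had 361 and 299, against 479 and 488, a log2 change of -0.56 ± 0.15 (limma adjusted p = 0.0247). Both groups of Apoa1 and Lcat were separate, but these 2 calls were fragile. Neither was called after quantile normalisation (limma, -0.19, adjusted p = 0.363 for Apoa1, and -0.25, adjusted p = 0.137 for Lcat). The Western diet plus oil pools are not in this contrast. Without either of them the log2 changes stayed at -0.72 for Apoa1 and -0.56 for Lcat, and fewer of all tested genes were called. The Apoa1 call was lost without either normal diet plus oil, normal diet plus CCl4 or Western diet plus oil pool (limma adjusted p up to 0.323). The Lcat call was lost without the same pools except the 12-week normal diet plus oil pool (limma adjusted p up to 0.190).

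Apoa2, the second protein of HDL, had 5998 and 5239.6 normalised reads on normal diet plus CCl4, against 7723 and 7629 on normal diet plus oil. Both CCl4 pools were lower, but the log2 change of -0.45 ± 0.23 did not pass (limma adjusted p = 0.172). Apoc3 slows the clearance of triglyceride-rich particles. It had 1455 and 1234, against 1653 and 1974, also lower in both pools and not called (-0.43 ± 0.20, limma adjusted p = 0.150). The genes that start VLDL did not pass. Apob had 4384 and 3833, against 4829 and 3088, and Mttp had 405 and 351, against 392 and 333. In both genes the groups overlapped, and the log2 changes were 0.09 ± 0.22 and 0.06 ± 0.11. Apoa5, which speeds triglyceride clearance by lipoprotein lipase, had 1217 and 1254, against 1116 and 1096. Apoe, the ligand for remnant uptake, had 22476 and 21212, against 19522 and 18487. Both were higher in each CCl4 pool by less than the fit could call (0.16 ± 0.17 and 0.20 ± 0.34).

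**Figure D2:**
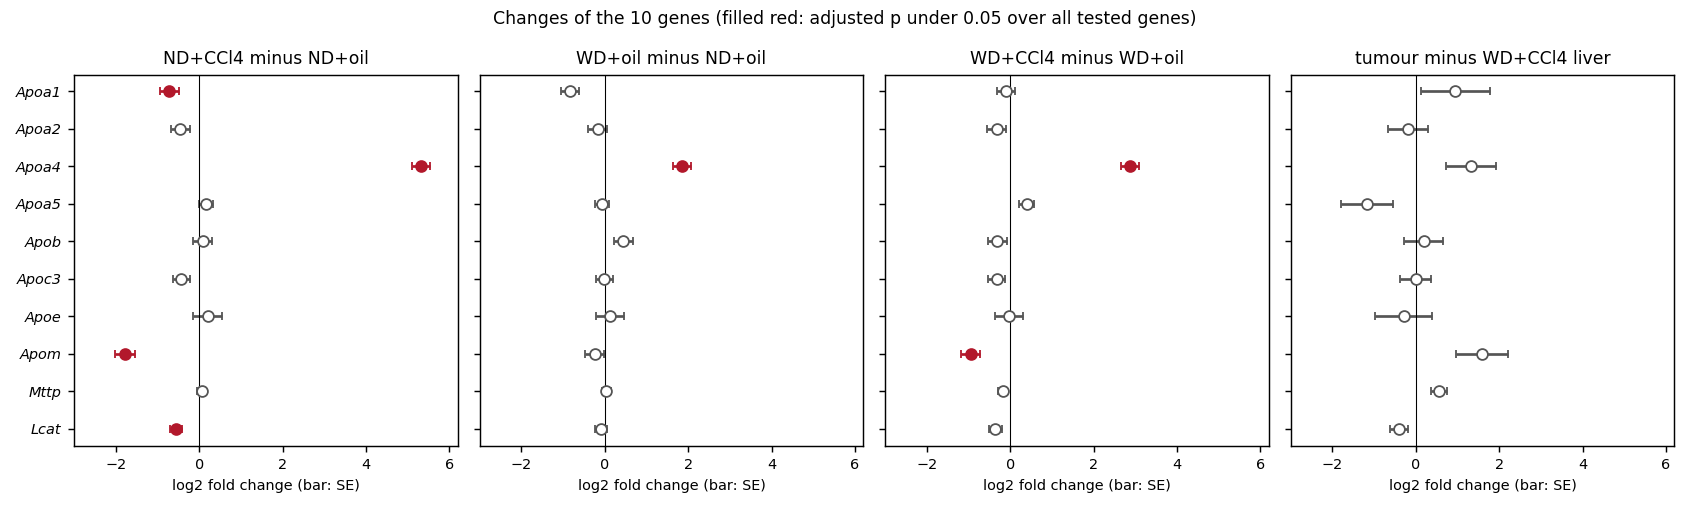
Log2 fold changes (horizontal axes) of the 10 genes in 4 comparisons, with bars for the standard error of the fit; filled red points are called. Apoa4 lies at 5.32, 1.86 and 2.87 in the liver comparisons, Apom at -1.78 and -0.95 with CCl4, and no gene is called between tumours and exposed liver.

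Markers of other cells moved in the same libraries. On normal diet plus CCl4, 9 of 16 hepatocyte markers fell and 0 rose, among them the fibrinogen genes Fgb, Fgg and Fga (log2 changes of -1.19, -1.18 and -1.18). The summed hepatocyte value was 119537 and 108763, against 190688 and 183401 on normal diet plus oil. Their part in the falls of Apom, Apoa1 and Lcat was not tested. The count of 9 was 1 without the 24-week normal diet plus CCl4 pool, 3 without the 24-week normal diet plus oil pool and 4 without the 12-week normal diet plus CCl4 pool. Of 20 macrophage markers, 18 rose and 0 fell, and their summed value was 1236 and 1832, against 496 and 685. Of 12 stellate cell markers, 10 rose and 0 fell (6 without the 24-week normal diet plus oil pool), with sums of 482 and 695, against 146 and 140.3. Endothelial markers rose in 4 of 10 (2 to 4 without 1 library) and bile duct markers in 3 of 9 (0 to 7 without 1 library), with 0 lower. None of the macrophage markers was at 0 in any library. Their part in the rise of Apoa4 was not tested.

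Since Apoa4 is abundant in gut, markers of enterocytes were read as well. The sucrase-isomaltase gene Sis and the intestinal factors Cdx1 and Cdx2 were at 0 reads in all 10 libraries, and the alkaline phosphatase gene Alpi was at 0 in every liver pool. Of the 10 enterocyte markers, 4 to 8 were at 0 in any library. Only 3 could be tested, of which 1 rose and 0 fell under CCl4 on normal diet, and 2 rose and 0 fell in the joint exposure. Slc5a1 had reads in every library, with 2.11 and 7.69 on normal diet plus CCl4, against 2.09 and 0.823 on normal diet plus oil. Vil1 had 0.358 and 0.623, against 0.177 and 0.183, and reached 15.5 in tumour 1. Fabp2, a fatty acid binding protein of enterocytes, was the marker with most reads. It had 184 and 137 normalised reads on normal diet plus CCl4, against 51.1 and 59.2 on normal diet plus oil, a log2 change of 1.51 ± 0.16 (limma adjusted p = 0.000525). The enterocyte sums of 187 and 146, against 53.4 and 60.2, were nearly all Fabp2.

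The Western diet with oil asked what the diet did alone. Apoa4 was the only 1 of the 10 genes called, against 1.99% of tested genes (1.45% higher and 0.546% lower). It had 414 and 349 normalised reads on Western diet plus oil, against 91.2 and 119 on normal diet plus oil. Both Western diet pools were above both normal diet pools, with folds of 4.53 at 12 weeks and 2.95 at 24 weeks, a log2 change of 1.86 ± 0.22 (limma adjusted p = 0.00647). This call was lost without either normal diet plus oil pool (limma adjusted p of 0.0528 and 0.0884) or the 12-week Western diet plus oil pool (1.45, limma adjusted p = 0.0965).

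Apoa1 had 5762 and 5255 normalised reads on Western diet plus oil, against 10023 and 9637 on normal diet plus oil. The groups were well apart, and the log2 change of -0.84 ± 0.22 was as large as that under CCl4, yet it did not pass (limma adjusted p = 0.109). It did pass in edgeR and DESeq2 on the recovered reads. Apob had 5243 and 5261, against 4829 and 3088, higher in both pools and not called (0.44 ± 0.22, limma adjusted p = 0.343). The Western diet pools were nearly equal, whereas on normal diet plus oil the 24-week value was 0.640 times the 12-week one. The other 7 genes had log2 changes between -0.24 (Apom) and 0.12 (Apoe). Hepatocyte markers numbered 0 called in either direction of 16, with sums of 169029 and 150023, against 190688 and 183401. Macrophage markers numbered 6 higher of 20 and 0 lower, with sums of 908 and 1079, against 496 and 685. That count was 1 without either normal diet plus oil pool or the 24-week Western diet plus oil pool, 0 without the 12-week Western diet plus oil pool, and 12 without either Western diet plus CCl4 pool. Stellate markers numbered 5 higher of 12 and 0 lower, with sums of 344 and 332, against 146 and 140.3. That count was 1 without the 24-week normal diet plus oil pool, 0 without the 12-week Western diet plus oil pool and 2 without the 24-week one. The part of these cells in the Apoa4 change was not tested.

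The joint exposure was set against unexposed liver. On Western diet plus CCl4, 3 of the 10 genes were called, Apoa4 higher and Apom and Apoa1 lower, against 25.9% of tested genes (15.7% higher and 10.2% lower). Apoa4 had 2221 and 3512 normalised reads, against 91.2 and 119 on normal diet plus oil, folds of 24.3 and 29.6 (log2 change 4.73 ± 0.22, limma adjusted p = 2.5e-05). Apoa1 had 5462 and 4781, against 10023 and 9637 (-0.94 ± 0.22, limma adjusted p = 0.0161). The Apoa1 call was lost without either normal diet plus oil pool (limma adjusted p of 0.0532 and 0.135). Apom had 182 and 85.6, against 281 and 293 (-1.19 ± 0.23, limma adjusted p = 0.00709). Its groups were apart but its 2 exposed pools were not alike: the fold was 0.645 at 12 weeks and 0.293 at 24 weeks. Without the 24-week normal diet plus oil pool the Apom change was -0.90 and not called (limma adjusted p = 0.0845), and without the 24-week Western diet plus CCl4 pool it was -0.74. Lcat had 428 and 296, against 479 and 488, just outside the threshold (-0.44 ± 0.15, limma adjusted p = 0.0542). Of hepatocyte markers, 7 of 16 fell and 0 rose, with sums of 140899 and 100181, against 190688 and 183401. Their part was not tested. The count of 7 was 1 without the 24-week normal diet plus oil pool, 3 without the 24-week Western diet plus CCl4 pool, 4 without any 1 of the normal diet plus CCl4 and Western diet plus oil pools, and 11 without the 12-week Western diet plus CCl4 pool. Macrophage markers rose in 19 of 20 (18 to 20 without 1 library, median log2 change 1.66), with sums of 1975 and 1833, against 496 and 685. Stellate markers rose in 11 of 12 (median 1.15), with sums of 634 and 1030.0, against 146 and 140.3, and the count was 6 without the 24-week pool of either group. Their part in the Apoa4 rise was not tested.

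CCl4 was then read on the Western diet itself. Apoa4 and Apom were called, 2 of 10, against 6.82% of tested genes (4.29% higher and 2.52% lower). Apoa4 had 2221 and 3512 normalised reads on Western diet plus CCl4, against 414 and 349 on Western diet plus oil (2.87 ± 0.22, limma adjusted p = 0.000477). Its folds were 5.37 at 12 weeks and 10.05 at 24 weeks. Apom had 182 and 85.6, against 248 and 236 (-0.95 ± 0.23, limma adjusted p = 0.0467). That call was lost without either pool of normal diet plus CCl4 or of Western diet plus oil, or without the 24-week Western diet plus CCl4 pool (-0.50, limma adjusted p = 0.203). Apoa1 did not pass (-0.11 ± 0.22, limma adjusted p = 0.811), with 5462 and 4781, against 5762 and 5255. Hepatocyte markers numbered 0 called in either direction of 16 (median log2 change -0.50), with sums of 140899 and 100181, against 169029 and 150023. Their part in the Apom fall was not tested. Macrophage markers rose in 13 of 20 (median log2 change 0.97), with sums of 1975 and 1833 on Western diet plus CCl4, against 908 and 1079 on Western diet plus oil. That count was 4 without the 12-week and 0 without the 24-week Western diet plus oil pool. Stellate markers rose in 4 of 12 (median 0.76), with sums of 634 and 1030.0, against 344 and 332. That count was 2 without the 12-week Western diet plus oil pool or the 24-week Western diet plus CCl4 pool, and 0 without the 24-week Western diet plus oil pool. Their part in the Apoa4 rise was not tested.

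The effect of CCl4 on Apoa4 differed between diets. The difference, Western minus normal diet, was -2.45 ± 0.31 (limma adjusted p = 0.0320). Apoa4 was the only 1 of the 10 genes called for this interaction, against 0.103% of tested genes (0.0553% higher and 0.0474% lower). The call held in only 2 of 8 fits without 1 library, those without a Western diet plus CCl4 pool. In the other 6 the difference had the same sign, and over all 8 it ran from -2.86 to -2.04, with a limma adjusted p of up to 0.145. Apoa4 was already higher on the Western diet with oil, and among CCl4 pools it was lower on Western diet at both durations, with folds of 0.672 at 12 weeks and 0.657 at 24 weeks. That last contrast, Western against normal diet among CCl4-treated livers, called 0 of the 10 genes with limma, against 0.0474% of tested genes (0.00791% higher and 0.0395% lower). EdgeR and DESeq2 also called 0 of the 10, against 5 and 67 of all 12648 tested genes. In this contrast 2 of the 10 genes had an unadjusted limma p under 0.05, as did 889 of all 12648 tested genes. Apoa4 there had a log2 change of -0.59 ± 0.22 (limma adjusted p = 0.640) and Apom 0.59 ± 0.23 (limma adjusted p = 0.667). The Apom change was 1.05 and called without the 24-week Western diet plus CCl4 pool.

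**Figure D3:**
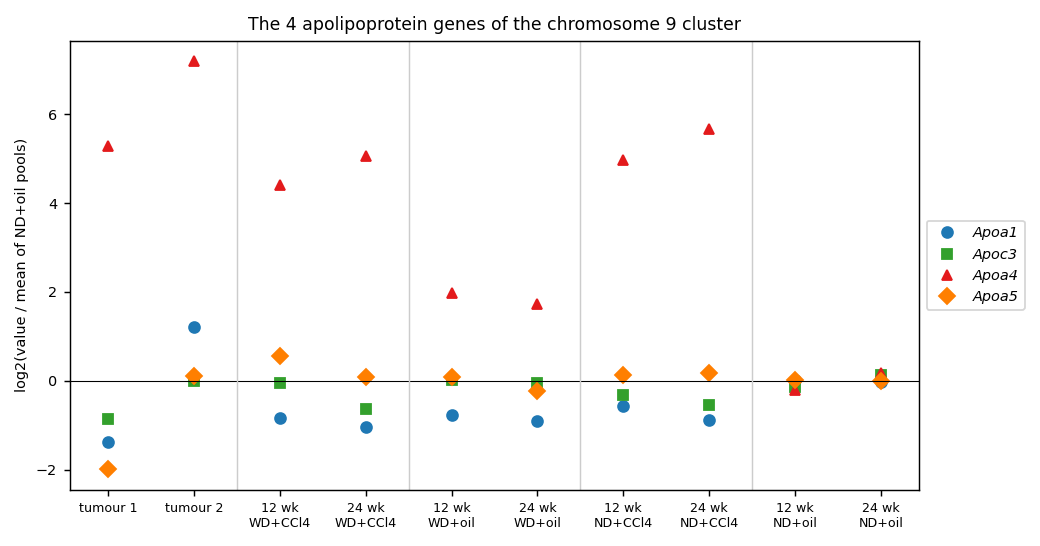
Log2 ratio (vertical axis) of each library's normalised read count to the mean of the normal diet plus oil pools, for the 4 genes of the chromosome 9 cluster. Apoa4 lies above its neighbours in every library outside normal diet plus oil, whereas Apoa1 lies below 0 in all 6 exposed liver pools.

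Within the chromosome 9 cluster the 4 genes parted ways. Apoa4 had 0.339 and 0.679 reads per kilobase for each of Apoa1 on normal diet plus CCl4, against 0.00620 and 0.00838 on normal diet plus oil. The ratio was 0.277 and 0.500 on Western diet plus CCl4, against 0.0489 and 0.0453 on Western diet plus oil. In the tumours it was 0.738 and 0.459. Apoc3, between them, was not called in any liver comparison, and neither was Apoa5. Among the 8 liver pools, Apoa4 ran against Apoa2 (Pearson r = -0.93) and Apom (r = -0.92), while Apom ran with Lcat (r = 0.97) and Apoc3 with Lcat (r = 0.96). These correlations describe 8 pools that fall into CCl4 and oil groups and share 1 scaling.

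Duration was tested over all 8 liver pools. Limma called 0 of the 10 genes and 0.0% of tested genes. EdgeR and DESeq2 likewise called 0 of the 10, against 1 and 90 of all 12648 tested genes. An unadjusted limma p under 0.05 was found for 4 of the 10 genes, and for 1475 of all 12648 tested genes. Those 4 were Apoa4 (0.37 ± 0.15), Apom (-0.39 ± 0.17), Mttp (-0.19 ± 0.08) and Lcat (-0.24 ± 0.10), each with an adjusted p between 0.414 and 0.423. Apoa4 at 24 weeks was 1.62 times its 12-week value on normal diet plus CCl4 and 1.58 times on Western diet plus CCl4. With oil it was 1.30 times on normal diet and 0.845 times on Western diet. Apom at 24 weeks was 0.718 times its 12-week value on normal diet plus CCl4 and 0.472 times on Western diet plus CCl4, but 1.04 and 0.951 times with oil. These ratios of single pools have no replicate check.

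The 2 tumours were set against liver on Western diet plus CCl4. Limma called 0 of the 10 genes, against 0.972% of tested genes (0.466% higher and 0.506% lower). An unadjusted limma p under 0.05 was found for 2 of the 10 genes, and for 2114 of all 12648 tested genes. EdgeR called 0 of the 10, against 85 of all 12648 tested genes. DESeq2 called 2 (Apoa4 and Apom, both higher), against 745 of all 12648. The spread in this fit includes the difference between the tumours, which was large for these genes. Apoa1 had 3789 normalised reads in tumour 1 and 22796 in tumour 2, against 5462 and 4781 on Western diet plus CCl4. Apoa4 had 4106 in tumour 1 and 15367 in tumour 2, against 2221 and 3512. Apom had 165 and 656, against 182 and 85.6. In all 3 genes tumour 2 was above every liver pool, and tumour 1 was not. The log2 changes were 0.95 ± 0.83 (limma adjusted p = 0.622), 1.32 ± 0.61 (limma adjusted p = 0.331) and 1.59 ± 0.61 (limma adjusted p = 0.251). Macrophage markers numbered 0 higher and 1 lower of 20 (median log2 change -0.77), with sums of 1414 and 1146, against 1975 and 1833. Stellate markers numbered 0 called of 12 (median -0.78), with sums of 787 and 416, against 634 and 1030.0. The part of these cells in the Apoa4 values was not tested.

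Apoa5, Apoc3, Apob and Apoe were lower in tumour 1 than in tumour 2. Apoa5 had 278 normalised reads in tumour 1 and 1193 in tumour 2, against 1638 and 1172 on Western diet plus CCl4. Apoc3 had 1003 and 1816, against 1742 and 1170.2. Apob had 3121 and 6246, against 4488 and 4003. Apoe had 12594 and 19232, against 22706 and 18221. Tumour 1 was below both exposed pools in these 4 genes and tumour 2 was within or above them. The reverse held for Apoa2, with 6194 and 3330.4, against 6112 and 4861. Mttp had 402 and 510.1, against 343 and 313, higher in both tumours and not called (0.56 ± 0.19, limma adjusted p = 0.207). Without tumour 1, the log2 changes were 2.24 for Apoa1, 2.27 for Apoa4, 2.58 for Apom and 0.73 for Mttp. Without tumour 2, that of Apoa5 was -2.22. Each of these fits then rests on 1 tumour.

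Against unexposed liver, tumours differed in 2 of the 10 genes, against 10.6% of tested genes (6.06% higher and 4.59% lower). Apoa4 rose by 6.06 ± 0.61 (limma adjusted p = 0.00250), with 4106 and 15367 normalised reads, against 91.2 and 119 on normal diet plus oil. Tumour 1 was 34.6 times and tumour 2 129.6 times the 24-week normal diet plus oil pool. The call was lost without that pool, as were nearly all calls over the tested genes, while the log2 change of Apoa4 stayed at 6.06. Lcat fell by 0.85 on the log2 scale (SE 0.21, limma adjusted p = 0.0435), with 270.0 and 225, against 479 and 488. It was the only 1 of the 10 genes in which both tumours lay below all 8 liver pools, whose lowest Lcat value was 296. The Lcat call held in only 2 of the 10 fits without 1 library, with adjusted p up to 0.466. Without tumour 1 the log2 change of Apoa1 was 1.30, and without tumour 2 it was -1.29, each resting on 1 tumour. Macrophage markers rose in 6 of 20, with sums of 1414 and 1146, against 496 and 685; the count was 0 without the 24-week normal diet plus oil pool, 3 without any other 1 liver pool and 17 without tumour 2. Their part in the Apoa4 rise was not tested.

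**Figure D4:**
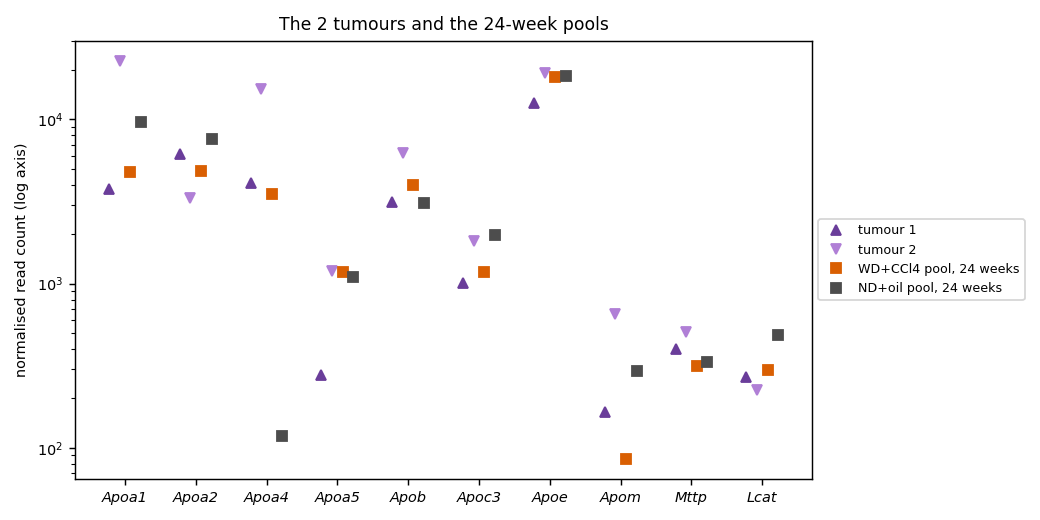
Normalised read counts (vertical axis, logarithmic) of the 10 genes in tumours 1 and 2 and in the 24-week pools of Western diet plus CCl4 and normal diet plus oil. The tumours lie far apart for Apoa1, Apoa4, Apoa5 and Apom and close together for Lcat and Mttp, and both lie well above the normal diet plus oil pool for Apoa4.

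The genes around these 10 were read from lists chosen with earlier results known, first for CCl4 against oil on normal diet. Among 14 other tested apolipoprotein genes, 1 rose and 2 fell, a total near the background share. Apoc2, the activator of lipoprotein lipase, had 499 and 529.8 normalised reads on normal diet plus CCl4, against 200.2 and 249 on normal diet plus oil (1.20 ± 0.13, limma adjusted p = 0.000603). Apoh fell by 0.74 and Apol7a fell by 0.83 on the log2 scale. The 2 falls were 0 without the 24-week pool of either group 1 without the 12-week normal diet plus CCl4 pool or either Western diet plus oil pool, and 5 without the 12-week normal diet plus oil pool or either Western diet plus CCl4 pool. Apoc2 rose on the Western diet too, with 536 and 525 on Western diet plus CCl4, against 220.0 and 208 on Western diet plus oil (1.31, limma adjusted p = 0.00177). In tumours Apoc2 had 661 and 2967.

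Of 20 genes for editing, lipid loading and secretion of apolipoprotein B, 1 rose and 2 fell under CCl4 on normal diet, below the 26.0% of all tested genes. The 2 that fell were Pla2g12b, a phospholipase-like protein of VLDL secretion (51.4 and 43.1, against 72.5 and 79.3), and Pdia3, a chaperone of the endoplasmic reticulum (478 and 420.3, against 633 and 768). Neither was called without the 24-week pool of either group. Pdia3 was called in only 3 of 8 fits without 1 library, and was lost also without the 12-week normal diet plus CCl4 pool or either Western diet plus oil pool. In the joint exposure 2 of the 20 rose and 7 fell, against 15.7% higher and 10.2% lower over all tested genes, and the 7 falls were 2 to 4 in fits without 1 library. Under 3 other scalings the falls in the joint exposure numbered 1 to 7. Apobec1, which edits Apob RNA, rose there by 0.64 ± 0.15 (limma adjusted p = 0.0168), with 25.1 and 22.5 normalised reads, against 14.8 and 15.1. That call was lost without either normal diet plus oil pool or the 12-week Western diet plus CCl4 pool.

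Sterol exporters and uptake receptors rose together under CCl4 on normal diet, 6 of 8 called higher and 0 lower (4 to 6 without 1 library), against 15.3% higher and 10.6% lower over all tested genes. Cd36, a fatty acid and lipoprotein scavenger receptor, had 281 and 369.7 normalised reads, against 49.5 and 66.7 (2.47 ± 0.11, limma adjusted p = 1.55e-05). Abcg5 and Abcg8, the transporter subunits that export sterol into bile, rose by 1.38 ± 0.13 and 1.15 ± 0.19. Abcg1, which loads cholesterol onto HDL and is also a macrophage gene, rose by 1.80 ± 0.20. These 4 genes were called in all 8 fits without 1 library.

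Of 16 plasma lipid enzymes and transfer proteins, 6 rose and 3 fell under CCl4 on normal diet, against 15.3% higher and 10.6% lower over all tested genes. Lpl, encoding lipoprotein lipase, rose by 1.91 ± 0.23 and Lipg, encoding endothelial lipase, by 1.72 ± 0.26, each called without any 1 library. Pon1, the HDL-borne paraoxonase, had 616 and 454 normalised reads, against 898 and 979 (-0.83 ± 0.21, limma adjusted p = 0.0207). The rises numbered 2 without the 24-week normal diet plus oil pool and 3 without the 24-week normal diet plus CCl4 pool, and the falls 0 without either and 1 without the 12-week normal diet plus CCl4 pool. In tumours Pon1 was lower still, with 86.6 and 69.8, against 814 and 472 on Western diet plus CCl4 (-2.83 ± 0.27, limma adjusted p = 0.0169). Lipg in tumours had 3.87 and 2.21, against 19.2 and 27.3 (-2.74 ± 0.35, limma adjusted p = 0.0209). Both tumours lay below every liver pool in these 2 genes, although each call held in only 2 of 10 fits without 1 library.

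Lipoprotein receptors and their regulators gave 5 higher and 1 lower of 12 under CCl4 on normal diet, against the same 15.3% and 10.6% over all tested genes. Vldlr, encoding the VLDL receptor, had 5.33 and 8.46 normalised reads on normal diet plus CCl4, against 2.35 and 1.42 on normal diet plus oil (1.44 ± 0.28, limma adjusted p = 0.00741). Mylip, a ubiquitin ligase that sends the LDL receptor to degradation, had 15.4 and 22.7, against 9.41 and 7.32. The 5 rises were 0 without the 24-week pool of either group, and the 1 fall was lost without either of these or the 12-week normal diet plus CCl4 pool. Of 27 transcription factors known to act on apolipoprotein genes or lipid metabolism, 4 rose and 3 fell, about the background share. Srebf1 rose by 1.04 ± 0.14, Ppara by 1.02 ± 0.13 and Nr1d2 by 0.83 ± 0.13, each called without any 1 library. The falls were 1 without the 12-week normal diet plus CCl4 pool and 5 without either Western diet plus CCl4 pool. Nr1i3, also on this list, fell in the joint exposure (log2 change -1.15, from -1.23 to -1.06 without 1 library). On normal diet plus CCl4 it had 68.1 and 52.8 normalised reads, against 57.9 and 60.7 on normal diet plus oil. Hnf4a and Creb3l3, which are known to drive Apoa4 in mouse liver, were chosen after their values were seen. Hnf4a had 560.1 and 543, against 770.2 and 709, and Creb3l3 had 308 and 259.9, against 319 and 314. Neither was called (-0.42 ± 0.15, limma adjusted p = 0.0637, and -0.16 ± 0.12, limma adjusted p = 0.351).

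**Figure D5:**
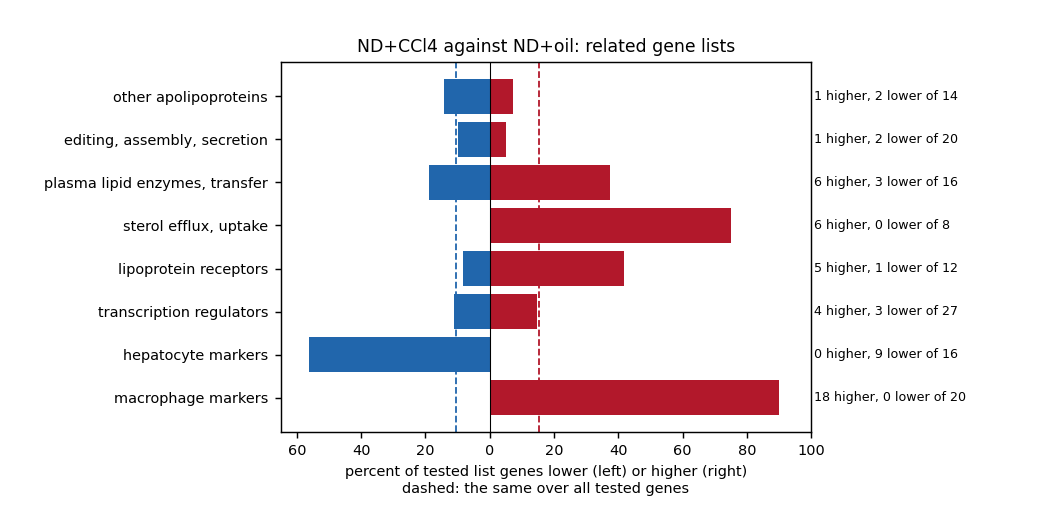
Share of tested genes (horizontal axis, percent) called higher (right, red) or lower (left, blue) on normal diet plus CCl4 against normal diet plus oil, by list; dashed lines mark the same shares over all tested genes, 15.3% higher and 10.6% lower. Sterol efflux and uptake genes, with 6 of 8 higher, extend right and hepatocyte markers, with 9 of 16 lower, extend left.

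For the 3 genes of widest range, the most similar patterns were sought among 6324 tested genes of at least median level, over 10 libraries. For Apoa4 they were Mpeg1 (Pearson r = 0.98), Uap1l1 (0.98), Enc1 (0.98), Ifi27l2b (0.97) and Ppp1r9b (0.97), with nearly the same r over the 8 liver pools alone (0.96 to 0.98). Mpeg1, which is also on the macrophage list, had 229 and 255 normalised reads on normal diet plus CCl4, against 69.7 and 93.0 on normal diet plus oil. For Apom they were Ccbl1 (0.98), Hgfac (0.97), Serpinf2 (0.97), F11 (0.96) and Itih3 (0.96). For Apoa1 they were Ap5s1 (0.97), Sult1a1 (0.96), Foxa3 (0.96), E2f4 (0.96) and Tpmt (0.95), and there r fell to 0.77 to 0.91 over the 8 liver pools, without the tumours. The libraries share their groups and 1 scaling, so these are descriptions.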

How the data were processed

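RNeasy kits gave the RNA, of which 200 ng per library went into poly-A selected TruSeq preparation, per the labels' protocols. Reads were aligned with STAR to mm10, per the submitters' processing notes. The sources used here do not give versions, the counter, its annotation, its strand setting or the scaling method. The deposited values are a normalised signal per gene, made by the authors from read counts. In each library 100% of them were whole multiples of the value of 1 read (tolerance 0.01 reads), so read counts were recovered.

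Genes at a value of 1 or more in at least 2 of 10 libraries were tested (12648 of 24062, with 6447 at 0 throughout). Log2(value + 1) was fitted with limma 3.58.1 (R 4.3.3, trended empirical Bayes), with 1 mean per diet and treatment and a duration term. Liver comparisons used 8 pools (3 residual degrees of freedom) and tumour comparisons all 10 libraries (4). The Benjamini-Hochberg adjustment covered all tested genes. EdgeR 4.0.16 and DESeq2 1.42.0 on recovered reads were alternatives, with another pseudocount, other filters and scalings, and each library left out. Scaling to each library's own read total (CPM) was added after seeing the data. The fit was tested on simulated data with the same small spread in every library and no duration shift. That test does not cover the spread between the tumours or pools of unlike duration used as repeats. Values per kilobase used GENCODE exon unions.

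The 10 genes and the lists were chosen with earlier results of these data known. From each list at most 4 called genes of largest change over 4 comparisons are named, or the 2 most abundant where none was called. Genes outside this rule were chosen after their values were seen. A gene of the receptor list is not reported here. Depth limits precision through counting error only, and the libraries carry no stated molecular identifiers.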

Additional observations from a re-analysis of the deposited data

Results flagged for a closer look

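Apoa4 drew attention because its response to CCl4 differed between diets by a test of the difference itself. The interaction, Western minus normal diet, was -2.45 ± 0.31 on the log2 scale (limma adjusted p = 0.0320). CCl4 changed Apoa4 by 2.87 on Western diet and by 5.32 on normal diet, and the fold was smaller on Western diet at both durations. The call held under 5 of 11 other settings and in 2 of 8 fits without 1 library.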

How the results depend on the processing

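Of the changes of the 10 genes under other settings, 874 kept their outcome, 38 lost a call, 18 gained one, 30 moved and 0 reversed. In fits without 1 library, 670 kept it, 37 lost a call, 15 gained one, 37 moved and 1 reversed. For CCl4 on normal diet, 4 of the 10 genes were called, 2 with no filter or no duration term and 1 in the fit of all 10 libraries (2 to 4 without 1 library). For Western diet with oil, 1 was called, 0 with no filter or all 10 libraries, and 2 with the stricter filter, CPM scaling, no trend, edgeR or DESeq2 (0 to 1). For the joint exposure, 3 were called, 1 with no filter or all 10 libraries and 5 in DESeq2 (1 to 4). For CCl4 on Western diet, 2 were called, 0 with no filter or all 10 libraries and 1 with the stricter filter, no trend, no duration term or edgeR (1 to 2). For Western diet among CCl4 livers, limma, edgeR and DESeq2 called 0 (0 to 1), with 2 at an unadjusted limma p under 0.05 (889 of all tested genes). For the interaction, 1 was called and 0 with no filter, the stricter filter, quantile normalisation, no trend, no duration term or all 10 libraries (0 to 2). For tumours against exposed liver, limma and edgeR called 0 and DESeq2 called 2 (0 to 4), with 2 at an unadjusted limma p under 0.05 (2114 of all tested genes). For tumours against unexposed liver, 2 were called and 1 with no filter, quantile normalisation, CPM scaling or edgeR (0 to 6). The cause was not tested. The reversals came from leaving out a tumour: against unexposed liver, Apoa1 in tumours ran from -1.29 to 1.30 and Nr1d2 from -1.36 to 0.998, and against exposed liver Cd36 ran from -0.90 to 0.49. CPM scaling moved the median of all genes to 0.22 with CCl4 on normal diet, 0.23 in joint exposure, 0.16 with CCl4 on Western diet and -0.20 in tumours against exposed liver. Higher and lower calls were then 3050 and 572 (1938 and 1347 in the deposited scaling), 3166 and 439 (1984 and 1294), 1006 and 156 (543 and 319), and 28 and 102 (59 and 64). Over all genes, no filter gave 1353 calls for CCl4 on normal diet (3285 with it), and DESeq2 gave 745 for tumours against exposed liver (123 in limma). No filter gave 0 calls of 17615 genes for Western diet with oil, 3 for CCl4 on Western diet and 0 for the interaction. The fit of all 10 libraries gave 4, 6 and 0 of 12648. Nearly all genes thus lost their calls in those fits, not only the 10. For Western diet with oil, edgeR gave 261 and DESeq2 570 (252 in limma). The duration term blocks the liver pools by 12 and 24 weeks, the pairing the labels give. Without that block the 10 genes gave 2 calls for CCl4 on normal diet and 2 for the joint exposure, 1 each for Western diet with oil and CCl4 on Western diet, and 0 for the interaction. The tumours have no such pairing.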

Other observations

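Pltp, encoding the phospholipid transfer protein of plasma, and Tm6sf2, a gene of VLDL lipidation, were chosen after their values were seen. Pltp fell by 0.91 on the log2 scale on Western diet plus oil against normal diet plus oil (limma adjusted p = 0.0122) and rose by 0.97 with CCl4 on Western diet (limma adjusted p = 0.00538). The fall was called in 4 of 8 fits without 1 library, being lost without any 1 pool of those 2 groups, and the rise in 6 of 8, being lost without either Western diet plus oil pool. Tm6sf2 fell by 0.61 in the joint exposure (limma adjusted p = 0.0169), a call that held in 6 of 8 fits without 1 library and under 2 of 3 other scalings. It was lost without the 24-week normal diet plus oil pool, without the 24-week Western diet plus CCl4 pool and under CPM scaling.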
